A study of Homo sapiens with 36 samples.

Results

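The comparison described here is that of fludarabine with its vehicle in JVM2, an established human B-lymphoblastoid leukaemic cell line in which p53 is wild-type. It uses 6 of the 36 RNA-sequencing libraries of the series, taken by the column names of the deposited count table: 3 libraries of JVM2 kept for 72 h in 50 µM fludarabine (numbered 94, 95 and 96) and 3 of JVM2 kept for 72 h in dimethyl sulphoxide (DMSO; numbered 85, 86 and 87). The study exposed 3 B-cell lines to fludarabine or to the kinase inhibitors ibrutinib (5 µM) and idelalisib (10 µM), and the other lines, p53-mutated MEC1 (48 h) and p53 wild-type EHEB (96 h), serve here only to show where JVM2 differed. Total RNA depleted of ribosomal RNA was sequenced from whole cultures, so fewer cells of a type and less RNA per cell cannot be told apart. No untreated library and no earlier time point of JVM2 was analysed here. In the comparison of fludarabine with vehicle a single line, JVM2, stands for the p53 wild-type genotype. Where lines are compared, MEC1 alone stands for the mutated one. The sources do not say that the libraries of a group came from separate cultures, so p-values measure only the spread between these libraries.

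Fludarabine is a purine nucleoside analogue used against chronic lymphocytic leukaemia. Inside the cell it is phosphorylated, first by deoxycytidine kinase, and its triphosphate is built into DNA, where it stops strand extension and inhibits ribonucleotide reductase. DNA damage of this kind stabilises the transcription factor p53, which switches on genes for cell cycle arrest, DNA repair, cell death and its own breakdown. By way of p21 (CDKN1A) and the DREAM complex, p53 also lowers the transcription of genes needed for S phase and mitosis.

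After 72 h of fludarabine the JVM2 transcriptome was changed across many functions. Most genes of mitosis and most histone genes fell, most p53 targets and interferon-stimulated genes rose, and most genes for ribosomal proteins, glycolysis and B-cell receptor signalling fell, as counted below. Of 17508 genes that passed the filter on low counts, 8269 were called changed (47.2%; edgeR quasi-likelihood test, Benjamini-Hochberg adjusted p under 0.05), of which 4183 were higher (23.9%) and 4086 lower (23.3%). These shares are the background against which every count of members below is read. A change of at least 1 on the log2 scale was reached by 1545 of the genes that rose and 1011 of those that fell, and a change of at least 3 by 427 and 108. Most calls were under 1 in size, and 2912 of the 8269 were under 0.5. The levels of the 3 fludarabine and the 3 DMSO libraries did not overlap in 10115 of the tested genes (57.8%).

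The DMSO libraries held 35479702 to 48753246 counts and the fludarabine libraries 38549987 to 43451750, over which a floor of 3 counts corresponded on average to 0.0757 and 0.0673 CPM, the counts of a gene per 1000000 counts of its library. Levels below are CPM scaled by TMM factors, listed in the order of library number, and fold changes are log2 values with their standard error. A range such as that of a group is given from its lowest to its highest library. Fludarabine libraries had more genes detected (22207 to 22708 against 20433 to 20836), a larger share of mitochondrial transcripts (0.768% to 1.16% against 0.420% to 0.467%) and a smaller share of ribosomal protein transcripts (4.23% to 4.84% against 6.71% to 7.02%), and fludarabine library 96 lay at the outer end of each range. With scaling by library size alone the median log2 fold change over all genes moved from 0.056 to 0.26, and the calls split into 6155 higher (35.2%) and 2752 lower (15.7%), so small directions rest on the scaling. Of 11365 genes with a mean of at least 5 CPM in either group, 225 differed by 3 times or more between libraries of 1 group, and such genes are named below by their values. All 12 B-cell markers passed the filter on low counts, at a summed 6562 to 7081 CPM in DMSO and 4347 to 5111 CPM in fludarabine, and 6 of 15 T-cell and 6 of 15 myeloid markers passed it too, at the levels given with the largest rises.

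**Figure D1:**
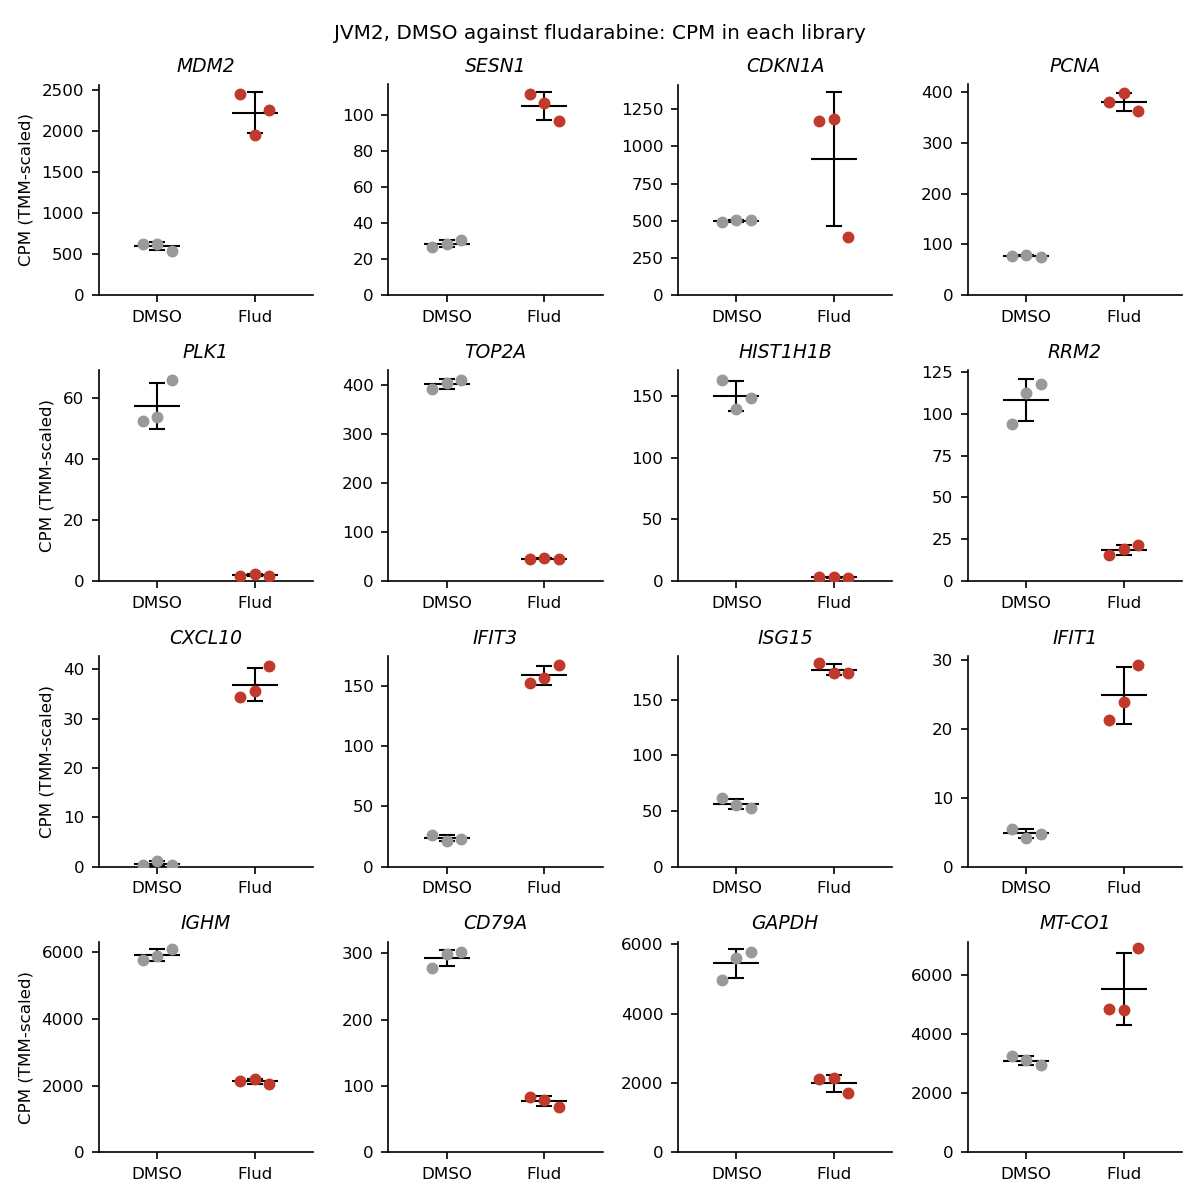
Levels of 16 genes in the 6 JVM2 libraries. The horizontal axis gives the group (Flud, fludarabine), the vertical axis CPM scaled by TMM factors from 0; points are libraries in order of their number, bars the mean and SD of 3 libraries. CDKN1A is the gene of this set whose groups overlap, with fludarabine library 96 below all DMSO libraries.

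The p53 target genes rose across all 3 of their branches. Of 16 tested targets that act in cell cycle arrest 14 rose and 1 fell (median log2 fold change 1.01, against 0.056 over all genes). Of 17 in cell death 13 rose and none fell (median 0.60), and of 27 in p53 feedback and repair 24 rose and 1 fell (median 1.26). MDM2 (chromosome 12, 68808177 to 68845544 on GRCh38), the ubiquitin ligase that degrades p53 and is itself a p53 target, measured 628, 626 and 545 CPM in DMSO and 2454, 1960 and 2263 CPM in fludarabine. All fludarabine libraries lay above all DMSO libraries, and MDM2 rose by 1.89 ± 0.099 on the log2 scale (edgeR adjusted p = 6.8e-08). It was among the 5 genes of the whole transcriptome with the largest gain in CPM.

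SESN1, a sestrin that restrains mTORC1, measured 26.5, 28.6 and 30.5 CPM in DMSO and 112, 107 and 96.6 CPM in fludarabine, without overlap, and rose by 1.88 ± 0.074. The repair genes moved alike. XPC, which recognises damage for nucleotide excision repair, went from 123–129 CPM to 291–315 CPM and rose by 1.26. RRM2B, the p53-induced ribonucleotide reductase subunit, rose by 1.28, from 163–178 to 396–436 CPM. DDB2, the partner of XPC in sensing ultraviolet lesions, rose by 0.64, and FDXR, a mitochondrial electron donor and p53 target, by 1.36. Adjusted p by edgeR was at most 0.003 for these 5 genes.

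Arrest genes differed widely in size. GADD45A, a stress sensor that binds PCNA, rose by 1.21, the polo-like kinases PLK2 and PLK3 by 2.75 and 1.5, and E2F7, a repressor of E2F genes, by 2.18. BTG2, an antiproliferative factor, rose by only 0.18. SFN, the 14-3-3 sigma protein that holds CDK1 in the cytoplasm, was near the floor in DMSO (0.0882, 0 and 0.0224 CPM) and reached 0.582, 0.76 and 0.744 CPM, a call lost without DMSO library 86 or 87 (log2 fold changes 3.65 and 3.99 against 4.23). The members of these hand-written p53 lists that fell were the 2 cyclins G, both named after their values were seen. CCNG1, the arrest gene that fell, did so by 0.45, and CCNG2, of the feedback and repair genes, fell by 0.60. The fall of CCNG2 was not called with library size scaling, nor without DMSO library 85 or fludarabine library 96 (-0.46 and -0.53).

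CDKN1A (chromosome 6, 36676460 to 36687337), which encodes the CDK inhibitor p21, was the least even of the arrest genes. It measured 489, 503 and 503 CPM in DMSO and 1171, 1181 and 393 CPM in fludarabine. Libraries 94 and 95 were above every DMSO library and library 96 was below all of them. Over the 3 libraries CDKN1A rose by 0.88 ± 0.30 (edgeR adjusted p = 0.034), and without library 96 the change was 1.24. The call was lost when any other library was left out, with changes between 0.65 and 0.88. MDM2, SESN1 and XPC in library 96 lay above all DMSO libraries.

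Death genes included small rises in the mitochondrial branch and genes that DMSO libraries lacked. BAX and BBC3 (PUMA), which open the mitochondrial membrane, rose by 0.59 and 0.65. TNFRSF10A, the TRAIL receptor 1, had no count in any DMSO library and 2.98, 3.28 and 2.91 CPM in fludarabine, at least 40.4-fold higher against a floor of 3 counts per library. TP53AIP1, a mitochondrial p53 effector, also went from 0 to 1.07, 0.521 and 0.814 CPM, at least 10.6-fold. TP53I3, an oxidoreductase, rose by 3.77, from 3.45–4.67 to 54.1–60.3 CPM. TNFRSF10B, the TRAIL receptor 2, rose by 0.30. FAS, the CD95 receptor, measured 78.9, 161 and 169 CPM in DMSO and 196, 204 and 191.9 CPM in fludarabine and did not pass the test (0.54 ± 0.32). PMAIP1 (NOXA), a BH3-only protein, was uneven in both groups, at 180.3, 296 and 289 CPM and 363, 124 and 118.2 CPM.

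Of the other p53 targets, KITLG, stem cell factor, had no DMSO count and went from 0 to 0.558–0.941 CPM (at least 10.2-fold, not called by DESeq2). CMBL, a hydrolase, rose by 3.01. The noncoding RNA DINOL, transcribed next to CDKN1A, rose by 2.46.

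**Figure D2:**
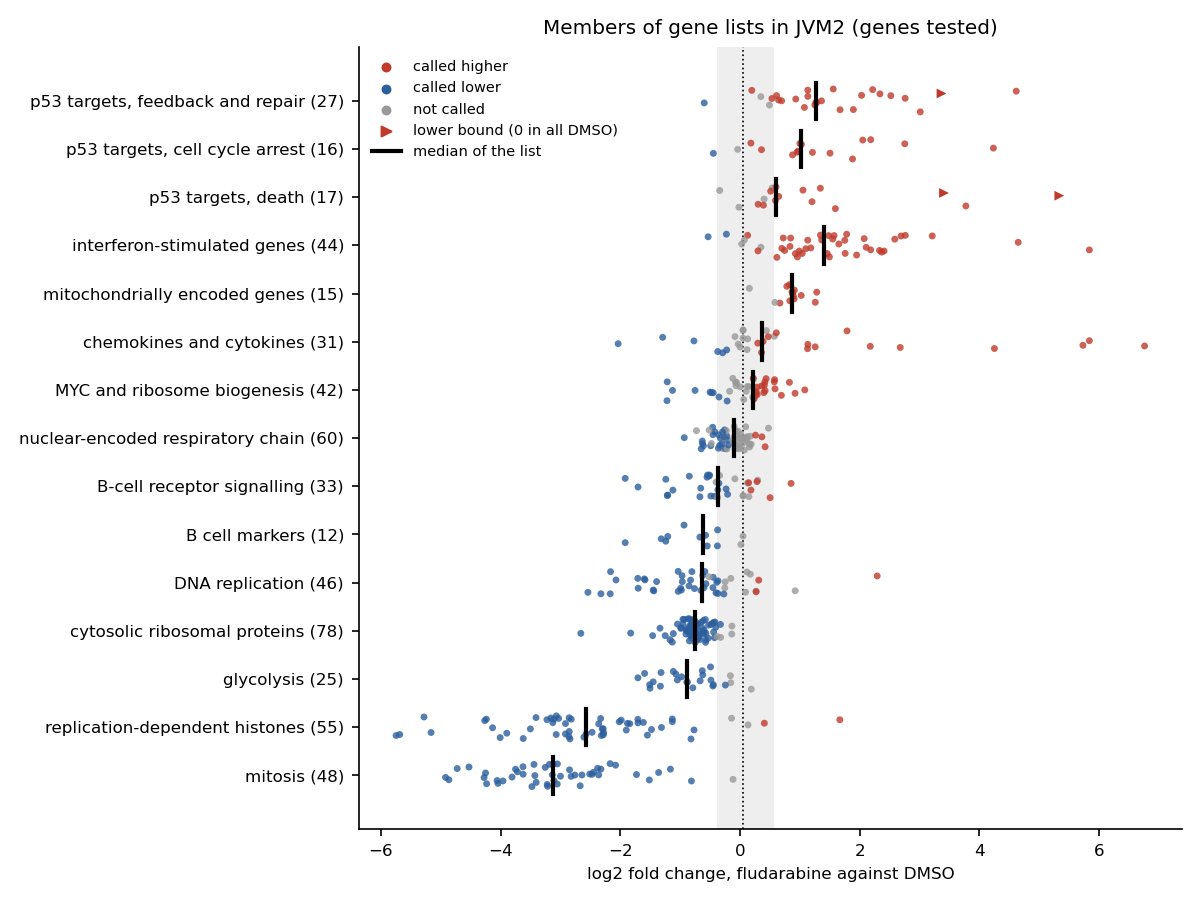
log2 fold changes, fludarabine against DMSO in JVM2, of the tested members of 15 gene lists (number tested in parentheses). Each point is a gene, coloured by its call (edgeR adjusted p under 0.05); triangles are lower bounds for genes at 0 in all DMSO libraries, black bars are list medians, the grey band spans the interquartile range of all genes tested and the dotted line is their median. Mitosis genes (median -3.13) and histones (-2.57) lie far left, interferon-stimulated genes (1.41) and p53 feedback genes (1.26) right.

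Mitosis was the function that fell the furthest. Of 48 tested genes that build the spindle, the kinetochore and the cleavage furrow or drive entry into mitosis, 47 fell and none rose, with a median log2 fold change of -3.13, and their summed level went from 3180–3356 CPM in DMSO to 543–588 CPM in fludarabine. BUB3, a checkpoint protein, was the exception at -0.12 ± 0.049. Many mitotic genes share a promoter layout, background to the DREAM complex: a CHR element with the letters TTTGAA or TTTAAA near the start site and CCAAT boxes bound by NF-Y. The promoters of 4 members are printed to show this layout, as the 130 bases before the RefSeq start on GRCh38.p14, all on the plus strand, with these letters in capitals. CCNB2 was chosen after its values were seen.
PLK1, chr16:23678759-23678888: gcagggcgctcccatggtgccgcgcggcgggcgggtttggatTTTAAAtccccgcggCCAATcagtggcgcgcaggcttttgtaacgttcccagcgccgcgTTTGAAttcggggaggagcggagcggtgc
CDC20, chr1:43358851-43358980: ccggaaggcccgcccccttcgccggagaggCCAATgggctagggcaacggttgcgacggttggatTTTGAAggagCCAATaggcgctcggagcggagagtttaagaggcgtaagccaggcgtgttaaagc
CCNB1, chr5:69167020-69167149: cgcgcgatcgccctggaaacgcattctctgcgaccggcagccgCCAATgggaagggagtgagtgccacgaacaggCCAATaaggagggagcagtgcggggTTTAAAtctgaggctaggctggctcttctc
CCNB2, chr15:59105016-59105145: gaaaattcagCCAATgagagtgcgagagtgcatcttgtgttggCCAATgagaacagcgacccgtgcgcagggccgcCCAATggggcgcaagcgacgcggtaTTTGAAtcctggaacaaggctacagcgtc

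The CHR letters end 24 bases before the start in PLK1 and CCNB2, 25 bases before it in CCNB1 and 60 before it in CDC20. PLK1 holds a further match, TTTAAA, that ends 83 bases before the start. In the 250 bases before the start, on either strand, TTTGAA or TTTAAA occurred in 28 of the 41 mitosis genes with a RefSeq promoter (68.3%), against 22.1% of 27305 genes. CCAAT occurred in 33 of the 41 (80.5% against 33% of all), and both together in 25 (61% against 7.85% of all). Across the transcriptome, of 702 tested genes with both, 31.2% fell and 22.4% rose (median log2 fold change 0.01), against 24% and 25.8% of the 11183 without. A match is a description, not a site or a cause.

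PLK1, the kinase that starts mitosis and builds the spindle, measured 52.3, 53.7 and 65.9 CPM in DMSO and 1.63, 2.34 and 1.67 CPM in fludarabine. The groups were far apart, and PLK1 fell by 4.92 ± 0.22 on the log2 scale (edgeR adjusted p = 2.2e-08). CDC20, the activator of the anaphase-promoting complex, measured 48.7, 49.6 and 53.5 and 1.55, 1.54 and 2.12 CPM and fell by 4.87 ± 0.16. ANLN, the anillin of the cleavage furrow, fell by 4.73. CCNB1, cyclin B1, measured 51.3, 50.4 and 61.5 CPM in DMSO and 10.4, 11.1 and 10.2 CPM in fludarabine and fell by 2.36 ± 0.097. Its partner kinase CDK1 fell by 3.44, CCNB2 by 3.19 and the spindle kinase AURKA by 2.51. TOP2A, the topoisomerase that untangles sister chromatids, was the most abundant of the anchors of this list, at 391, 403 and 411 CPM in DMSO and 45, 46.9 and 45.1 CPM in fludarabine, a fall of 3.14 ± 0.048.

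Genes that fold and tie chromosomes fell too. Of 32 cohesin, condensin and chromatin assembly genes 24 fell and 2 rose (17 and 5 with library size scaling; median -0.50). The condensin subunits NCAPH and NCAPG fell by 2.76 and 2.51, the histone chaperone ASF1B by 1.80 and CHAF1A, of the chromatin assembly factor, by 0.63. Of 44 cytoskeleton and migration genes 25 fell and 9 rose (17 and 14 with library size scaling), among them the tubulins TUBA1B, which fell by 1.69, and TUBB, which fell by 1.38.

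DNA replication genes fell less, and with a marked exception. Of 46 tested, 34 fell and 3 rose (28 and 7 with library size scaling), with a median of -0.64. PCNA, the clamp that holds DNA polymerase on its template and a p53 target as well, measured 78, 79.3 and 76.1 CPM in DMSO and 380.4, 398 and 363 CPM in fludarabine. It rose by 2.29 ± 0.055 (edgeR adjusted p = 2.9e-10), while MCM2, of the replicative helicase, fell by 0.83 ± 0.08, from 134.6–162 to 76.5–88.4 CPM. The others that rose were TYMS, thymidylate synthase, by 0.31 and LIG1, the ligase of Okazaki fragments, by 0.27; LIG1 was named after its value was seen. RRM2, the S-phase subunit of ribonucleotide reductase, fell by 2.54 ± 0.31, from 94.1, 113 and 117.9 CPM to 15.4, 19.1 and 21.2 CPM, opposite in direction to RRM2B. CDT1, which loads the helicase, fell by 2.33. CDC6, its loading partner, measured 7.61, 7.22 and 8.17 CPM and 6.61, 5.64 and 7.11 CPM and did not pass the test. In the 38 replication genes with a promoter sequence, TTTGAA or TTTAAA occurred in 4 (10.5%) and CCAAT in 22 (57.9%).

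Replication-dependent histone genes, whose transcripts are made in S phase, fell almost without exception. Of 55 tested 51 fell and 2 rose (median -2.57), and their summed level went from 6062–6278 CPM down to 1204–1431 CPM. HIST1H1B, a linker histone (H1.5), measured 163, 139.6 and 148 CPM in DMSO and 2.84, 2.93 and 2.6 CPM in fludarabine, a fall of 5.75 ± 0.087. HIST1H3B fell by 5.28, HIST1H2AD by 5.69 and HIST1H4C by 1.90. HIST1H1C, another linker histone, fell by 1.71. The exceptions were HIST1H2AC, which rose by 1.67, and HIST1H3E, which rose by 0.41, both named after their values were seen. Copies of these genes are near-identical, so counts of single members are uncertain where reads could be split between them.

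DNA damage response and repair genes outside the p53 targets leaned lower. Of 57 tested 30 fell and 8 rose (median -0.22), but with library size scaling 19 fell and 13 rose. The members that fell the most work in homologous recombination and the Fanconi pathway: XRCC2 fell by 1.81, EXO1 by 1.72 and FANCI by 1.5. CHEK1, the checkpoint kinase of stalled forks, fell by 1.13 ± 0.20, from 24.7, 18.1 and 19.7 CPM to 7.39, 10.4 and 10.8 CPM. BRCA1 fell by 0.64 and ATM, the kinase that responds to double-strand breaks, by 0.26, both not called with library size scaling.

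Regulators of the G1 phase split. Of 23 cyclins, CDKs, inhibitors and pocket proteins 13 fell and 4 rose. CDKN2B (p15), an inhibitor of CDK4, rose by 3.13, from 0.176, 0.311 and 0.291 to 1.95, 2.6 and 2.39 CPM. CDKN2C (p18), an inhibitor of the same kinase, fell by 2.80, from 7.08, 6.1 and 6.02 to 0.873, 1.13 and 0.744 CPM. Cyclin D2 (CCND2) rose by 0.31 and cyclin D1 (CCND1) fell by 1.35. CDK4 itself fell by 0.48, p27 (CDKN1B) by 0.75 and E2F2, an activator of S-phase genes, by 2.16.

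Among 27 BCL2 family, caspase and inhibitor of apoptosis genes, 9 rose and 5 fell (15 and 3 with library size scaling), a split near the background. BCL2, which blocks the mitochondrial pathway, fell by 0.43 and MCL1 rose by 0.35. BIK, a BH3-only protein, had no DMSO count and 0.358, 0.543 and 0.325 CPM in fludarabine, at least 5.4-fold. CASP10, an initiator caspase, rose by 1.66. The BH3-only BCL2L11 (0.43 ± 0.48) did not pass. XIAP, a caspase inhibitor, was uneven, at 113, 22.4 and 58 CPM in DMSO and 14.9, 14.7 and 13.6 CPM in fludarabine, and fell by 2.16 ± 0.80 (edgeR adjusted p = 0.046). Left out in turn, every library except DMSO library 86 took that call away, with changes of -2.13 without fludarabine library 96 and -1.48 without DMSO library 85.

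Interferon-stimulated genes rose together. Of 44 tested 39 rose and 2 fell, with a median log2 fold change of 1.41, and their summed level went from 3927–4309 CPM in DMSO to 8947–9244 CPM in fludarabine. Interferons act by way of factors, STAT2 and IRF9 among them, that bind the interferon-stimulated response element, and its core is GAAA, any 2 bases and again GAAA. The promoters of 4 members are printed to show where these letters lie, 100 bases each on GRCh38.p14 in the gene's direction, with matches on either strand in capitals. IFIT3 was chosen after its values were seen.
CXCL10, chr4:76023638-76023737, minus strand: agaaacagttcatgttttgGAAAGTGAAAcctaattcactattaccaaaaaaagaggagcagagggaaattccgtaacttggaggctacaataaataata
IFIT1, chr10:89392483-89392582, plus strand: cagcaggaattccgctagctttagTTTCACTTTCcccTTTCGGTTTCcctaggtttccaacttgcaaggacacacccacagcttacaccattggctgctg
IFIT3, chr10:89327817-89327916, plus strand: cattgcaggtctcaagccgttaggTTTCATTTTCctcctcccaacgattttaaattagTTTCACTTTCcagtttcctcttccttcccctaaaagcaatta
ISG15, chr1:1013357-1013456, plus strand: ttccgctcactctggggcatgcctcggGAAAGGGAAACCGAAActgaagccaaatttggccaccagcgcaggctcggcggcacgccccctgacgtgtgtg

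The match nearest the start ended 212 bases before it in CXCL10, 94 in IFIT1, 113 in IFIT3 and 98 in ISG15, where 2 matches overlap. In the 250 bases before the start this core occurred in 20 of the 35 interferon-stimulated genes with a RefSeq promoter (57.1%), against 3.07% of 27305 genes. Of 305 tested genes with these letters 39.7% rose and 18.4% fell (median 0.22), against 25.2% and 24.6% of 11580 without them. That count includes the members of the list.

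CXCL10, the chemokine that draws T cells through CXCR3, measured 0.353, 1.2 and 0.358 CPM in DMSO and 34.5, 35.6 and 40.7 CPM in fludarabine. It rose by 5.84 ± 0.38 (edgeR adjusted p = 4.3e-07) and was among the 10 largest rises of genes whose average log2 CPM reached 1. IFIT1, which binds foreign RNA caps, measured 5.47, 4.21 and 4.77 CPM and 21.3, 23.9 and 29.3 CPM, a rise of 2.37 ± 0.13. Its neighbour IFIT3 measured 26.2, 21.3 and 22.8 and 153, 156 and 168 CPM, a rise of 2.76 ± 0.087. ISG15, the ubiquitin-like modifier, measured 61.3, 55.6 and 52.4 CPM and 183, 174 and 174 CPM, a rise of 1.65 ± 0.065. In each of these genes the 3 fludarabine libraries were above all DMSO libraries.

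RSAD2 (viperin), an antiviral enzyme, rose by 4.65 and the GTPase GBP1 by 3.21. MX1, an antiviral GTPase at 303–323 CPM in DMSO, rose by 0.13, a call lost without DMSO library 86 (0.097) or fludarabine library 94 (0.11). The members that fell were MX2, by 0.53, and IRF7, the interferon regulatory factor, by 0.23, both named after their values were seen; the call of IRF7 was lost with library size scaling (-0.03).

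Chemokine and cytokine genes were led by inflammatory members. Of 31 tested 15 rose and 6 fell (17 and 3 with library size scaling). CXCL9, which like CXCL10 binds CXCR3, went from 0–0.147 to 4.28–6.07 CPM. IL6, interleukin 6, went from 0–0.118 to 1.25–2.46 CPM. The chemokines CCL3 and CCL4, made by stimulated B cells, rose by 1.26 and 1.79, from 356–358 to 827–888 CPM and from 50.6–51.8 to 166–190.8 CPM. CCL22 (-0.085) and the suppressive cytokine IL10 (0.049) did not pass the test.

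Of 27 NF-kB pathway genes 11 rose and 6 fell (13 and 3 with library size scaling). CD83, a surface marker of activated cells, rose by 2.12 and the kinase CHUK by 0.91, while the inhibitor NFKBIE fell by 0.98. TNFAIP3 (A20), a brake on the pathway, rose by 0.37 and NFKB2 by 0.24. Of 30 immediate early genes 12 rose and 8 fell (15 and 3 with library size scaling), with FOSL1 up by 1.5, EGR3 by 1.29 and JUN by 0.56. FOS was uneven, at 0, 0.335 and 0.492 CPM and 0.761, 0.412 and 0.883 CPM, and did not pass.

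Of 20 MHC class I genes 8 rose and 3 fell (13 and 1 with library size scaling). Among those called, TAP1 and TAP2, the peptide transporter, rose by 1.22 and 1.54, and PSME2, of the proteasome activator, by 1.54. B2M, the light chain of all class I molecules, was uneven: it measured 391, 5927 and 5932 CPM in DMSO and 4875, 4790 and 320.0 CPM in fludarabine, with DMSO library 85 and fludarabine library 96 far below the rest. Among 17 MHC class II genes 3 rose and 4 fell (8 and 1 with library size scaling): HLA-DOB rose by 1.18, HLA-DMA by 0.87 and HLA-DRA fell by 0.58, while CD74 (0.014) did not pass. The regulator CIITA (0.18) did not pass either, but was called higher with library size scaling (0.38), the stricter filter (0.24) and counts divided by 8/3, and without fludarabine library 94.

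**Figure D3:**
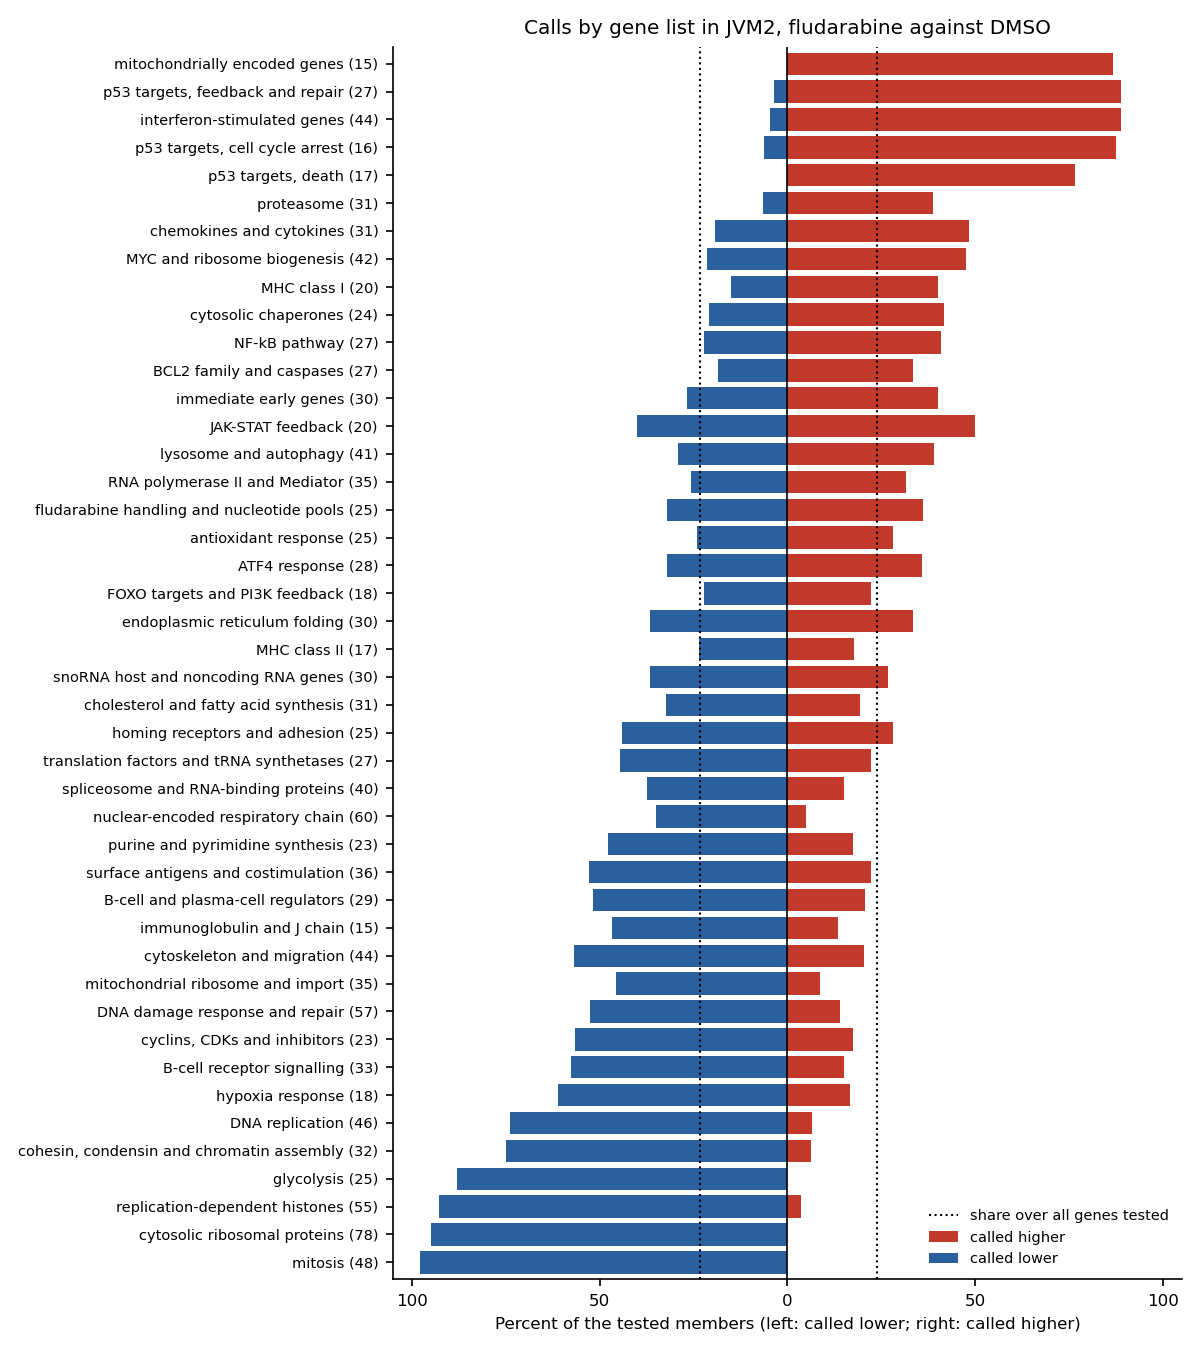
Share of tested members called higher (right) and lower (left) in JVM2 with fludarabine, for 44 functional gene lists (number tested in parentheses). The dotted lines mark the share over all genes tested, 23.9% higher and 23.3% lower. Mitochondrially encoded genes, the p53 lists and interferon-stimulated genes stand at the top, mitosis, ribosomal proteins, histones and glycolysis at the bottom.

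B-cell identity genes leaned lower. Of 33 B-cell receptor (BCR) signalling genes 19 fell and 5 rose (17 and 9 with library size scaling; median -0.38), and of 12 B-cell markers 10 fell and none rose (median -0.62). CD79A, the signalling chain of the receptor, measured 279, 299 and 302 CPM in DMSO and 83.8, 79.6 and 69.1 CPM in fludarabine, a fall of 1.92 ± 0.068 (edgeR adjusted p = 4.3e-09). The kinase PRKCB, which links the receptor to NF-kB, fell by 1.71, the inhibitory coreceptor CD22 by 1.24 and the adaptor BLNK by 0.66. BTK, the target of ibrutinib, fell by 0.55 ± 0.066, from 64.7–77.2 to 47.8–50.6 CPM. SYK, the kinase at the top of the pathway, rose by 0.18. MS4A1 (CD20), the target of rituximab, fell by 0.38, not called with library size scaling (-0.18).

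The most abundant immunoglobulin transcripts fell. Of 15 immunoglobulin and J chain genes tested 7 fell and 2 rose, and their summed level went from 7967–8262 CPM to 2722–2936 CPM. IGHM, the mu heavy chain that JVM2 expresses, measured 5766, 5906 and 6116 CPM in DMSO and 2157, 2197 and 2044 CPM in fludarabine, a fall of 1.48 ± 0.04 and among the 5 largest losses in CPM. IGHD fell by 1.86, IGKC by 1.75 and JCHAIN, which joins IgM pentamers, by 2.25, from 595–763 to 139–155 CPM. IGHG3, a gamma chain, rose by 2.58, from 0.263–0.47 to 1.88–2.62 CPM. Gene segments of this family are similar, so single members are uncertain.

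Transcription factors of B-cell and plasma-cell fate moved in both directions, with 15 of 29 lower and 6 higher. BCL6, the repressor of the germinal centre, measured 0.0882, 0.789 and 0.448 CPM in DMSO and 12.7, 12.9 and 10.4 CPM in fludarabine, a rise of 4.72 ± 0.77. FOXP1, a forkhead factor of mature B cells, measured 0.176, 0.287 and 0.358 and 4.5, 3.97 and 6.02 CPM, a rise of 4.10 ± 0.32. PRDM1 (BLIMP1), the driver of plasma cells that BCL6 represses, rose as well, by 1.49. IRF4, which acts beside PRDM1, fell by 0.88, PAX5, the keeper of B-cell identity, by 0.55 and IKZF2 by 1.84.

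Of 36 surface antigens and costimulatory molecules 19 fell and 8 rose (16 and 13 with library size scaling). CD27, a memory B-cell receptor, fell by 2.1, and CD38, a marker of plasma cells and of aggressive chronic lymphocytic leukaemia, rose by 1.39, from 30.5–34 to 81.3–88.1 CPM. TIGIT, an inhibitory receptor, rose by 2.11. Of 25 homing receptors 11 fell and 7 rose (9 and 9 with library size scaling): PECAM1 fell by 1.18, CD69 by 1.14, and CCR7, the lymph node homing receptor, rose by 0.94. CXCR4, the marrow homing receptor, was uneven at 0.176, 0.311 and 0.358 CPM and 0.246, 0.174 and 0 CPM. In cytokine signalling, the kinase PIM1 fell by 2.03 and PIM2 by 0.65, while SOCS2, a feedback inhibitor, rose by 3.27.

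Of 78 cytosolic ribosomal protein genes 74 fell and none rose, with a median of -0.76 and a range from -2.66 to -0.14. RPLP0 went from 1522–1611 to 862–1042 CPM, a fall of 0.71, and RPS6, the S6 kinase substrate, from 1753–1879 to 843–992 CPM, a fall of 0.96. RPL29 fell the most, by 2.66 ± 0.61, but was uneven in DMSO, with a mean of 641 CPM and an SD of 388 CPM. In fludarabine its mean was 101 CPM and its SD 17.8 CPM. The elongation factor EEF1A1, the largest single loss in CPM, measured 13690, 15951 and 18069 CPM in DMSO and 8680, 8148 and 7945 CPM in fludarabine. EEF2 fell by 0.47 and the helicase EIF4A1 by 0.72. These 3 factors do not stand for their list: of 27 translation factors and tRNA synthetases 12 fell and 6 rose (median -0.044). With library size scaling 10 fell and 13 rose (median 0.15).

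Of 42 MYC and ribosome biogenesis genes 20 rose and 9 fell (median 0.22). Those that fell included the nucleolar proteins NPM1 (nucleophosmin), by 1.22, FBL (fibrillarin), by 1.22, and NCL (nucleolin), by 0.22, the last not called with library size scaling (-0.018). MYC measured 86, 106 and 9.67 CPM in DMSO and 71.1, 71.3 and 59.5 CPM in fludarabine, with DMSO library 87 far below the rest, and did not pass. GAS5 and SNHG6, noncoding hosts of snoRNAs with the same 5′ oligopyrimidine starts as ribosomal protein genes, fell by 0.51 and 1.37. Their list of 30 snoRNA host and other noncoding RNA genes split, with 11 lower and 8 higher (11 and 9 with library size scaling; median -0.072). Of 40 spliceosome genes 15 fell and 6 rose (10 and 13 with library size scaling), with HNRNPA1 down by 1.04. Of 35 RNA polymerase II and Mediator genes 11 rose and 9 fell (21 and 1 with library size scaling), near the background, with POLR2A up by 0.57.

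Glycolysis fell as a pathway. Of 25 genes 22 fell and none rose (median -0.88). GAPDH, often used as an unchanging reference, measured 4990, 5609 and 5774 CPM in DMSO and 2132, 2143 and 1710 CPM in fludarabine, a fall of 1.45 ± 0.10 (edgeR adjusted p = 7.6e-07). HK2, which traps glucose in the cell, fell by 1.71, LDHA, which makes lactate, by 1.6 and PKM by 0.63. The glucose transporter SLC2A1 (-0.16 ± 0.22) did not pass. Targets of hypoxia were lower in 11 of 18 and higher in 3: CA9, a carbonic anhydrase, went from 1.91, 3.4 and 1.57 CPM to 0, 0.0868 and 0 CPM, P4HA1, a collagen hydroxylase, fell by 2.35 and VEGFA by 0.49.

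Transcripts made by the mitochondrial genome rose. Of 15 tested 13 rose and none fell (median 0.87). MT-CO1, of cytochrome oxidase, measured 3262, 3124 and 2943 CPM in DMSO and 4855, 4817 and 6932 CPM in fludarabine, a rise of 0.83 ± 0.13 and the largest gain in CPM of any gene; library 96 was the highest. MT-ND1 rose by 0.90 and MT-ATP6 by 1.26. The 60 nuclear genes of the respiratory chain did not follow: 21 fell and 3 rose (median -0.11), and with library size scaling 11 fell and 17 rose (median 0.09). TFAM, which packs and transcribes mitochondrial DNA, was at -0.018 ± 0.042. Of 35 mitochondrial ribosome and import genes 16 fell and 3 rose (7 and 9 with library size scaling).

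The genes that carry, activate and clear fludarabine changed one by one rather than as a group, with 9 of 25 higher and 8 lower. DCK, deoxycytidine kinase, which makes the active nucleotide, measured 41.1, 41.6 and 38.4 CPM in DMSO and 26.1, 25.3 and 21.8 CPM in fludarabine, a fall of 0.73 ± 0.075 (edgeR adjusted p = 1.5e-05). SAMHD1, a triphosphohydrolase that breaks down deoxynucleotides and their analogues, measured 20.5, 17.5 and 11.4 and 43.7, 40.2 and 45.9 CPM, a rise of 1.39 ± 0.20. NT5C2, a nucleotidase that reverses the kinase step, fell by 0.67. The nucleoside importer SLC29A1 (ENT1) was at 0.19 ± 0.092 and did not pass, but was called higher with library size scaling (0.39) and the stricter filter. SLC28A3, a concentrating nucleoside importer, and ABCB1, the multidrug exporter, had no DMSO count. They reached 0.851, 1.06 and 1.05 CPM and 0.515, 0.738 and 1.12 CPM, at least 13-fold and 10.4-fold higher. UGT2B17, the glucuronidating enzyme that the study follows, measured 13.4, 14.9 and 13.1 CPM in DMSO and 12, 12.7 and 12.4 CPM in fludarabine and did not pass (-0.15 ± 0.064), although without DMSO library 87 it was called lower (-0.19). By quantitative PCR, another assay, the paper reported a significant induction of UGT2B17 by fludarabine in JVM2. It also reported raised glucuronidation of dihydrotestosterone, a UGT2B17 substrate, and of fludarabine after drug treatment of its cell models. Enzyme activity cannot be read from RNA counts. The reason for the difference between these counts and the paper's assays was not tested.

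In purine and pyrimidine synthesis 11 of 23 genes fell and 4 rose (10 and 8 with library size scaling). PAICS, of the purine pathway, fell by 1.36, SHMT2, which supplies one-carbon units in mitochondria, by 1.07 and IMPDH2, the step to guanine nucleotides, by 0.83. Cholesterol and fatty acid genes were near the background, with 6 of 31 higher and 10 lower (12 and 2 with library size scaling). SCD, the desaturase, fell by 1.23, and ABCA1, which exports cholesterol, went from 0–0.0882 to 1.93–2.51 CPM.

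Stress and protein turnover genes gave a mixed picture. Of 31 proteasome genes 12 rose and 2 fell (22 and 1 with library size scaling), with PSMA4 up by 0.63 and PSMD1 by 0.31. Among 24 cytosolic chaperones 10 rose and 5 fell (14 and 3 with library size scaling): DNAJA1 rose by 1.01, HSPA8 by 0.87 and HSPH1 by 0.82, while the heat-inducible HSPA1A was at 0.076. Endoplasmic reticulum folding genes split 10 higher to 11 lower of 30 (13 and 6 with library size scaling), with DDIT3 (CHOP) at -0.094 and not called. HSPA5 (BiP), at 0.12, was called higher with library size scaling (0.32), counts divided by 8/3, the stricter filter and without fludarabine library 96. ATF4, the transcription factor of the integrated stress response, fell by 1.06, and its targets split 10 higher to 9 lower of 28 (13 and 6 with library size scaling). NUPR1, a small chromatin protein of that list, had no DMSO count and 3.58, 2.32 and 3.25 CPM in fludarabine, at least 40.3-fold. Of 41 lysosome and autophagy genes 16 rose and 12 fell (23 and 4 with library size scaling), with CTSZ, a cathepsin, up by 1.38 and LAMP1 up by 1.05. HMOX1, haem oxygenase, rose by 1.07 and SOD2 by 1.01, among 25 antioxidant genes of which 7 rose and 6 fell (12 and 5 with library size scaling). SESN3, a sestrin under FOXO control, rose by 1.76, and 4 of 18 FOXO and PI3K feedback genes rose and 4 fell (6 and 3 with library size scaling).

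Among genes whose average log2 CPM reached 1, the 10 largest rises included CXCL10 and the genes named here, most of which DMSO libraries barely held. Of the genes that rose, 3.39% had no count in any DMSO library. MUC2, the gel-forming mucin of the gut, went from 0 to 21.1, 21.2 and 21.9 CPM, at least 283-fold higher. The olfactory receptor pseudogene OR2I1P measured 2.79, 2.32 and 2.73 CPM in DMSO and 231.8, 228 and 256 CPM in fludarabine, and rose by 6.51 ± 0.17. The late cornified envelope genes LCE1C and LCE1F, which belong to the skin, reached 19.2–19.7 and 11.9–12 CPM from at most 0.470 and 0.176 CPM. DRAXIN, an axon guidance protein, reached 7.18–8.4 CPM, DQX1 8.09–8.92 CPM, TGM4, a prostate transglutaminase, 16.8–21 CPM and the plexin PLXNB3 13.4–16.1 CPM. Markers of other cell types moved in both directions, with 2 of 6 tested myeloid markers higher and none lower, 1 of 6 T-cell markers higher and 2 lower, 2 of 7 epithelial and stromal markers higher and 4 lower, and 1 of 6 erythroid and platelet markers higher and 2 lower. The defining markers CD14, LYZ, CD3E, CD2, HBB, PPBP and EPCAM were too low to test, and COL1A1 fell by 1.77. The summed level of the myeloid markers went from 20–24 CPM up to 51–54 CPM, that of the T-cell markers from 60–63 CPM down to 44–52 CPM, that of the erythroid and platelet markers from 18.9–21.2 to 12.9–15.1 CPM, and that of the epithelial and stromal markers from 119.8–130.4 to 57.1–65.1 CPM.

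With the same limit on abundance, the 10 largest falls included 4 histone genes, PLK1, CDC20, FAM72C, FAM72D, DEPDC1 and MIR1244-1. FAM72C and FAM72D, near-identical copies whose reads may be split between them, fell from 17.4–20.5 and 16.9–20.2 CPM to 0–0.673 and 0–0.761 CPM. DEPDC1, a mitotic protein, fell by 4.81. MIR1244-1 led by fitted size but rested on unlike libraries and was not called in 5 of the 6 fits with a library left out, at 62.9, 0.0239 and 58.9 CPM in DMSO and 0.0224, 0.0217 and 0.0232 CPM in fludarabine (standard error 4.02, edgeR adjusted p = 0.05). The abundant 7SK RNA (RN7SK), a large loss in CPM, fell by 0.24 on the log2 scale and was at -0.039 and not called with library size scaling.

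The share of calls differed with gene type and gene length. Long noncoding RNA genes had a median log2 fold change of 0.33, with 20.1% of 1231 higher and 9.83% lower, against 26.1% higher and 25.5% lower of 14052 protein-coding genes (median 0.04). Processed pseudogenes went the other way, with 8.86% of 1151 higher and 21.2% lower. Among protein-coding genes split into 5 equal groups by annotated length, the longest group (median 170 kb) had 23.0% higher and 34.6% lower, while in the 4 shorter groups 21.3% to 24.9% were lower. Under library size scaling the longest group still held the largest share of lower calls (23.9% against 12.8% to 16.4%). These are shares across genes, which are not independent replicates.

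**Figure D4:**
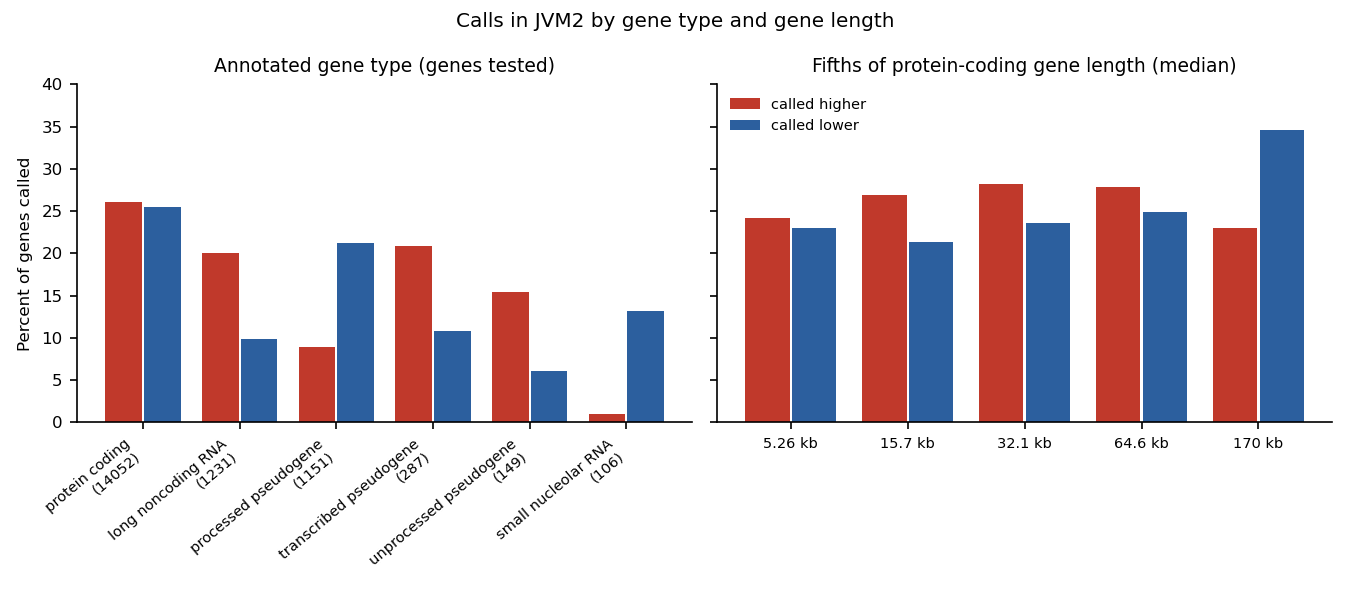
Percent of genes called higher and lower in JVM2 with fludarabine, by annotated gene type (left, types with at least 100 genes tested) and by 5 groups of gene length among protein-coding genes (right, labelled with the median length). The longest group has 34.6% lower calls, and long noncoding RNA genes have 20.1% higher against 9.83% lower.

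The response of JVM2 was set against those of MEC1 and EHEB with an interaction test over 18 libraries and 19286 genes. The effect differed between JVM2 and MEC1 in 4861 genes (25.2%), with JVM2 above in 2264 (11.7%) and below in 2597 (13.5%). Against EHEB it differed in 4285 genes (22.2%), with JVM2 above in 2427 (12.6%) and below in 1858 (9.63%). Cell line, p53 status and exposure time cannot be told apart in these differences. In the joint fit 20.7% of genes rose and 18.7% fell with fludarabine in MEC1 (median log2 fold change 0.063), and 15.6% and 19.4% in EHEB (median -0.0018). Values in this comparison come from that fit and can differ in the second decimal from those above.

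The fall of mitosis genes separated JVM2 from both lines. JVM2 was below MEC1 in 47 of 48 mitosis genes and below EHEB in all 48. The median was -0.02 in MEC1, with 7 lower and 2 higher, and -0.44 in EHEB, with 30 lower and 3 higher. PLK1 changed by -4.93 ± 0.17 in JVM2, -0.30 ± 0.14 in MEC1 and -1.16 ± 0.15 in EHEB, and the differences of -4.63 ± 0.22 and -3.77 ± 0.22 both passed (edgeR adjusted p = 5.5e-10 and 5.4e-09). TOP2A changed by -3.14 in JVM2, -0.014 in MEC1 and -0.45 in EHEB. Histone genes fell in all 3 lines, in 51 genes in MEC1 (median -1.57) and 50 in EHEB (median -1.09), and JVM2 was below them in 36 and 47 of 58, and above MEC1 in 8. Of 46 replication genes JVM2 was below MEC1 in 31 and below EHEB in 28.

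The p53 targets of JVM2 were more often above those of MEC1 than below, and mixed against EHEB. In MEC1 itself 9 of 16 arrest genes rose and 2 fell, against 20.7% and 18.7% of all genes. Of 18 death genes 6 rose and 4 fell in MEC1, and of 27 feedback and repair genes 10 rose and 6 fell. In EHEB 13 arrest genes rose and 1 fell, 14 death genes rose and 0 fell, and 22 feedback and repair genes rose and 1 fell. Over all genes 15.6% rose and 19.4% fell in EHEB. Of 27 feedback and repair genes JVM2 was above MEC1 in 18 and below it in none, and above EHEB in 8 and below it in 4. Among the 16 arrest genes it was above MEC1 in 9 and below it in 1, above EHEB in 4 and below EHEB in 6. Among the 18 death genes it was above MEC1 in 10 and below it in 1, above EHEB in 3 and below EHEB in 4. MDM2 changed by 1.89 ± 0.092 in JVM2, 1.56 ± 0.091 in EHEB and 0.14 ± 0.089 in MEC1. The difference from MEC1 was 1.75 ± 0.13 (edgeR adjusted p = 6.3e-08), and that from EHEB 0.32 ± 0.13 (edgeR adjusted p = 0.08). SESN1 rose in all 3, by 1.87, 1.31 and 1.52 in JVM2, EHEB and MEC1. The difference of CDKN1A did not pass, at 0.23 ± 0.52 from MEC1 and -0.19 ± 0.52 from EHEB.

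Interferon-stimulated genes rose in JVM2 and MEC1 and leaned lower in EHEB. Of 44 genes 33 rose and 3 fell in MEC1 (median 0.56), and 7 rose and 20 fell in EHEB (median -0.25). JVM2 was above MEC1 in 26 of them, below MEC1 in 3 and above EHEB in 41. ISG15 changed by 1.65 ± 0.11 in JVM2, 0.36 ± 0.11 in MEC1 and -0.43 ± 0.11 in EHEB. GBP1 was lower in JVM2 than in MEC1, at 3.21 against 3.91, a difference of -0.71 ± 0.17 (edgeR adjusted p = 0.0056). The falls of ribosomal protein and glycolysis genes and the rise of mitochondrial transcripts appeared in all 3 lines: 73 of 78 ribosomal protein genes fell in MEC1 and 61 in EHEB, 19 and 19 of 25 glycolysis genes fell, and 12 and 15 of 15 mitochondrial genes rose.

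**Figure D5:**
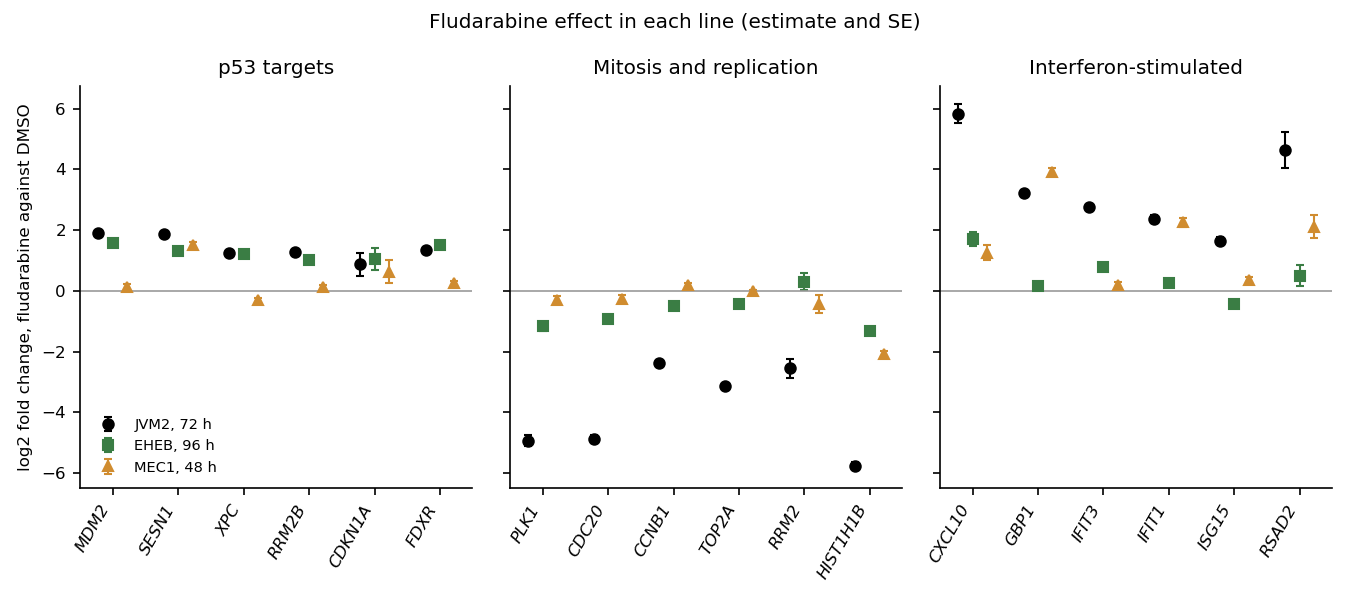
log2 fold change with fludarabine (estimate and standard error of the joint fit, 3 libraries per group) of 18 genes in JVM2, EHEB and MEC1. JVM2 lies below both other lines for the mitosis and replication genes drawn, near EHEB for MDM2, XPC and RRM2B, and above both for CXCL10, IFIT3 and ISG15.

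The kinase inhibitor libraries of JVM2 share the DMSO libraries with fludarabine, so their values are given only side by side. Mitosis genes had medians of -3.13 with fludarabine, -0.82 with ibrutinib and -2.23 with idelalisib. The p53 feedback and repair genes had medians of 1.26, -0.25 and -0.48, and interferon-stimulated genes of 1.41, 0.66 and 0.77. MDM2 was at 1.89, -0.12 and -0.22, PLK1 at -4.92, -1.04 and -2.44, ISG15 at 1.65, 1.49 and 1.46, and UGT2B17 at -0.15, 1.5 and 1.85 in the same order.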

How the data were processed

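Gene counts of 36 RNA-sequencing libraries (rRNA-depleted total RNA) were analysed, of which 6 form the comparison; groups were taken from the sample titles. Per the submitters' processing notes and the study's methods, the authors trimmed reads with Trimmomatic, aligned them to hg38 with HISAT2 2.1 and deposited the expected counts made by StringTie 1.3.4, estimated counts per gene symbol that are not normalised. StringTie derives these from coverage, so low values pile up at 3, 6 and 8 (36308 values of 3 against 13180 of 4). The annotation release, strand setting and read length were not given in the sources used here, so reads of overlapping and antisense genes may not be separable. A blank symbol (0.00384% of counts) was left out. Symbols and positions come from GENCODE release 44 on GRCh38; 99.66% of 37549 symbols were matched. Tables of the authors' own comparisons were not used.

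With edgeR 4.0.16 (R 4.3.3), the 12 JVM2 libraries were fitted in 1 model after TMM scaling and filterByExpr (10 counts, 15 in total), the quasi-likelihood test and Benjamini-Hochberg adjustment over 17508 genes, called at 0.05. Differences between lines were tested as the interaction over the 18 DMSO and fludarabine libraries. In simulated data with 200 of 17508 genes changed by 1 on the log2 scale, the fit for JVM2 recovered 70.5% with 2 false calls. The differences from MEC1 and EHEB, over 19286 genes each, recovered 62% and 53.5%. The simulation changed as many genes up as down and drew every group from the JVM2 DMSO profile. It therefore does not measure false calls in data such as these, where 47.2% of genes were called and the scaling moved the median. Alternatives were DESeq2 1.42.0, library size scaling, no filter, a filter at a mean of 5 CPM, fits of only the groups compared, and each library left out; counts divided by 8/3 and library size scaling without the 7SL, 7SK, RMRP and RPPH1 RNAs were added after seeing the data. Depth, 35479702 counts or more per library, bounds counting error only.

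The comparison, the 49 gene lists (written by hand) and the motifs were chosen with earlier results of these data known, and lists were described without a set test. Of 1504 list entries 6 could not be matched and 61 were too low to test. Named are the anchor genes of each list, up to 3 called genes per list with the largest change and no overlap, the 10 largest rises and falls among genes whose average log2 CPM reached 1, the 5 largest gains and losses in CPM, and the 5 largest differences in each direction from each line; fewer are printed. Members named as the exceptions to a count, CCNB2, IFIT3 and UGT2B17 were chosen after their values were seen. A gene at 0 in all DMSO libraries is given as a bound against 3 counts per library. Promoters are the first listed RefSeq start of each gene on GRCh38.p14, searched over 250 bases upstream on both strands. Figures were drawn with matplotlib 3.10.9 under Python 3.11.15. Some genes that the rule names are not reported here.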

Additional observations from a re-analysis of the deposited data

Results flagged for a closer look

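The effect of fludarabine differed between JVM2 and MEC1 in 4861 genes and between JVM2 and EHEB in 4285 genes of 19286 (edgeR interaction test, adjusted p under 0.05). Among them 316 rose in JVM2 and fell in MEC1, 381 the reverse, 332 rose in JVM2 and fell in EHEB, and 177 the reverse. JVM2 was above both lines in 811 genes and below both in 788. Cell line, p53 status and exposure time cannot be told apart against MEC1, nor cell line and exposure time against EHEB, which is also p53 wild-type.

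Genes among the largest called differences are named here, and in most of them a group had no counts, so the fitted size depends on the model's prior and is not a measured fold. In JVM2 over MEC1 the fitted log2 difference was 10.34 for TNFRSF10A, which went from 0 in DMSO to 3.05–3.38 CPM in fludarabine in JVM2 and from 13.7–14.7 to 8.79–12.3 CPM in MEC1. It was 9.80 for RASAL1, a Ras GTPase activator at 0 in the DMSO libraries of JVM2 and 3.13–3.37 CPM in fludarabine. IGHV4-59 was at 9.41 with JVM2 levels of 0 in DMSO and 0–1.56 CPM in fludarabine, so single libraries carried it. FAM198B was at 8.54 and the neurofilament gene NEFH at 7.79, both at 0 in the fludarabine libraries of MEC1. JVM2 was below MEC1 for CHST3 (-8.87), DSCAML1 (-8.78), BEND4 (-7.72) and SASH1 (-7.53), all 4 at 0 in the DMSO libraries of MEC1. Of these, SASH1 in JVM2 was at 21.8–26.8 CPM in DMSO and 24.5–26.1 CPM in fludarabine.

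Against EHEB, JVM2 was above for RIN2 (10.69), for ZBP1, a sensor of Z-form nucleic acids (9.85), and for the matrix protein TNC (8.95), ABCB1 (8.38) and SEMA5A (8.19). ABCB1 went from 0 to 0.531–1.17 CPM in JVM2 and from 8.41–11.2 to 6.62–8.76 CPM in EHEB. ZBP1 went from 0 to 0.917–2.61 CPM in JVM2 and from 3.4–4.44 to 1.63–2.52 CPM in EHEB. JVM2 was below EHEB for AATK (-10.15), CBS (-8.38), SEMA6D (-7.39), NBEAP1 (-7.32) and SEMA6B (-7.00), all 5 at 0 in the DMSO libraries of EHEB. CBS, which makes cystathionine, rose in both, from 0 to 1.56–2.37 CPM in EHEB and from 1.61–2.61 to 3.16–4.59 CPM in JVM2.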

How the results depend on the processing

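The 8269 calls became 8698 with DESeq2, 8907 with library size scaling, 8992 with that scaling without the 7SL, 7SK, RMRP and RPPH1 RNAs, 8175 with counts divided by 8/3, 7751 without a filter, 6649 with the stricter filter and 7910 with a fit of the 6 libraries alone. They were 7413 to 7736 with 1 library left out, and 7110 to 7367 of the 8269 genes remained called. With library size scaling without those RNAs 6306 genes were higher and 2686 lower, since that scaling moved the median of all genes. Under both library size settings 19 DNA damage response genes were lower instead of 30. TFAM reversed (0.18 with library size scaling, 0.19 without the RNAs). Differences from MEC1 ranged from 4200 to 5681 over the alternatives (4231 to 4480 with a library left out) and those from EHEB from 3524 to 5124 (3619 to 3911). Under these alternatives mitosis (46 to 47 lower), histones (51), interferon-stimulated genes (37 to 41 higher) and ribosomal proteins (70 to 74 lower) stayed within 1.5 times of the reported counts. Many other list counts moved further with library size scaling, as given with each list. With that scaling 22 proteasome genes were higher instead of 12. Of the RNA polymerase II and Mediator genes 21 were higher instead of 11, and of the cholesterol and fatty acid genes 2 were lower instead of 10. No paired analysis was possible because the libraries of the groups compared share no replicate number. With 3 libraries per group small changes can be missed, and levels near 3 counts per library cannot be told from 0.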
